A study of Mus musculus with 4 samples.

Results

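The 7 cyclin-dependent kinase (CDK) inhibitor genes of the mouse, Cdkn1a, Cdkn1b, Cdkn1c, Cdkn2a, Cdkn2b, Cdkn2c and Cdkn2d, were followed in single cells from the growing end of the lower incisor of WT and Din-KO mice. The rule takes the family by gene symbol and uses no measured value, and the family makes up 7 of the 32285 genes in the count matrices. All 7 had unique molecular identifiers (UMIs, 1 for each captured mRNA molecule) in each of the 4 libraries. The cells came from proximal incisor tissue of mice at postnatal day 15, with 2 libraries of WT mice (WT 1 and WT 2) and 2 of Din-KO mice (Din-KO 1 and Din-KO 2), and neither the labels nor the methods say how many mice were pooled for each. Where nothing says that libraries came from separate mice, p-values measure only the spread between these libraries, which may be technical. Din-KO mice carry a germline allele of Din (4930453N24Rik) in all tissues, made by removing exon 2 and the Neo cassette with Cre and leaving a LacZ reporter. WT mice carry none of these.

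CDK inhibitors hold back the kinases that drive a cell through its division cycle. The Cip/Kip members Cdkn1a, Cdkn1b and Cdkn1c encode proteins that bind complexes of cyclins with several CDKs, while the INK4 members Cdkn2a, Cdkn2b, Cdkn2c and Cdkn2d encode proteins that bind Cdk4 and Cdk6 and keep them from their D cyclins. Cdkn1a is a target of the p53 protein, Cdkn1c is an imprinted gene, and Cdkn2a also encodes the ARF protein, which acts on Mdm2. The mouse incisor grows throughout life: stem cells at its proximal end give rise to cycling progenitors, and these to odontoblasts in the mesenchyme and to ameloblasts in the epithelium, which make dentin and enamel.

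On the GRCm38 build (GENCODE M21), Cdkn2a (chr4:89274471-89294653, minus strand) and Cdkn2b (chr4:89306299-89311039, minus strand) are neighbours with 11645 bases between them. Cdkn2c lies elsewhere on the same chromosome (chr4:109660876-109667189, minus strand). Cdkn1a is at chr17:29090976-29100727 and Cdkn1b at chr6:134920401-134925513, both on the plus strand, and Cdkn1c is at chr7:143458339-143461050 and Cdkn2d at chr9:21288410-21291407, both on the minus strand. The libraries count the 3′ ends of mRNAs, so the ARF and INK4 transcripts of Cdkn2a, which end in the same exons, were counted together.

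After the study's filters on cells, 3903 cells of WT 1, 1560 of WT 2, 4575 of Din-KO 1 and 1272 of Din-KO 2 remained, 11310 of 20502 barcodes, with medians of 8016 to 11588 UMIs per cell. Pairs of libraries shared 0 to 4 barcodes among these cells. The libraries differed in make-up. Dental pulp-like cells were 1905 of 2650 mesenchyme-like cells in WT 1 and 2188 of 3034 in Din-KO 1, against 245 of 843 in WT 2 and 192 of 632 in Din-KO 2. In the 8 classes compared between genotypes, 0% of cells of the WT libraries had UMIs of Y-linked genes with few or none of Xist. This share was 19.8% to 59.6% in the Din-KO libraries, so sex and genotype cannot be told apart over all cells. Whether the 3′ tags reach exon 2 of Din, the deleted one, was not tested, so they do not check the labels. The level of Din in mesenchyme-like cells was 36.3 and 28.5 CPM (UMIs scaled to a common depth) in WT 1 and WT 2 and 22.6 and 28.3 CPM in Din-KO 1 and Din-KO 2. In the same order it was 21.5 and 16.7 against 7.55 and 5.53 CPM in macrophage-like cells. In epithelium-like cells it was 38.5 and 20.5 against 17.4 and 13.0, and in dental follicle-like cells 38.5 and 31.6 against 20.3 and 31.3. In B-like cells 29.4 and 24.5 stood against 2.62 and 9.93 CPM, on 1 and 5 UMIs in Din-KO. The groups overlapped in dental pulp-like, endothelium-like and odontoblast-like cells.

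Cells were clustered without the 7 genes and the clusters were named from markers, each name ending in "-like". In the following, the level of a gene in a class is its CPM among all UMIs summed over the cells of that class in 1 library, as mean ± SD over the libraries with at least 20 cells of the class. Levels are descriptions without a test, and compare classes for 1 gene, not genes with each other. Dental pulp-like, dental follicle-like, odontoblast-like, epithelium-like, endothelium-like, macrophage-like and B-like cells, 7 classes in all, reached 20 cells in all 4 libraries. Glia-like, perivascular-like, neutrophil-like and monocyte or dendritic-like cells reached that number in 2 or 3.

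**Figure D1:**
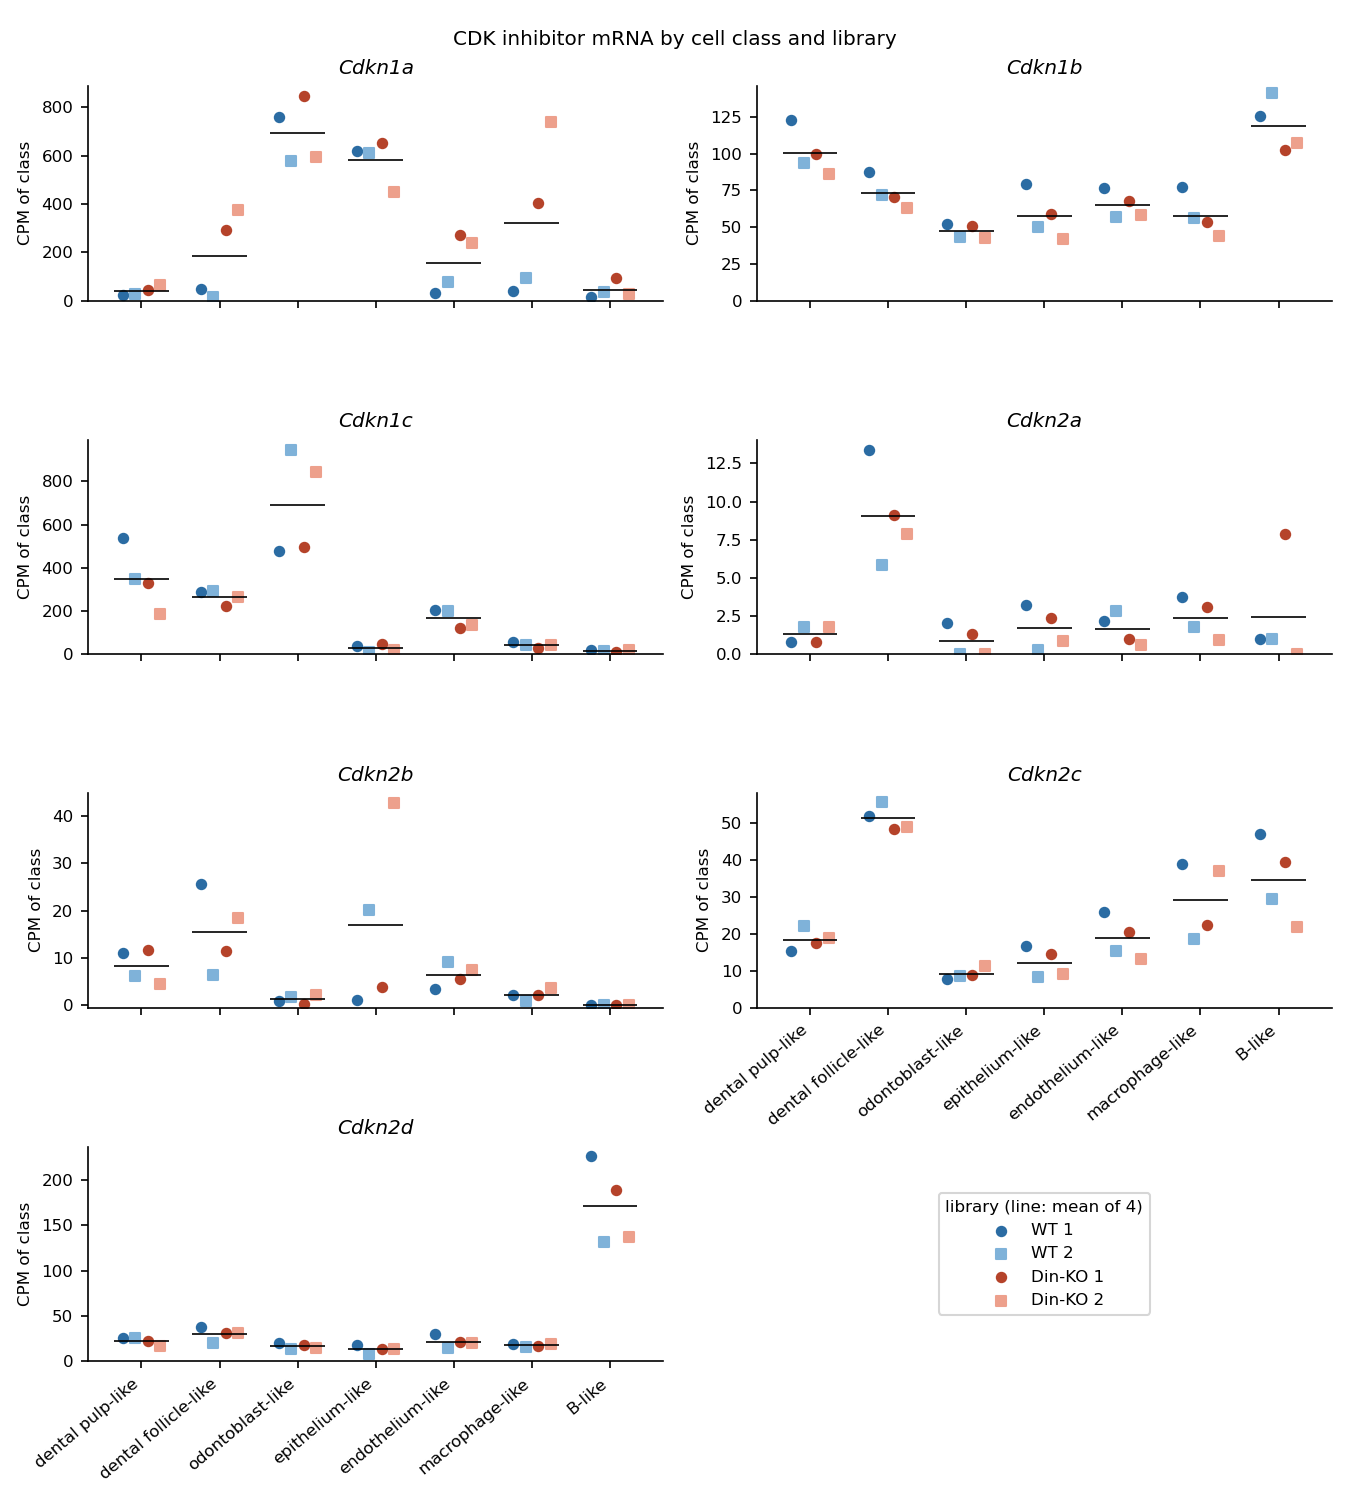
Level of each CDK inhibitor (CPM, vertical axis, separate linear scale for each gene) in the 7 cell classes with at least 20 cells in every library (horizontal axis); points are libraries and horizontal lines the mean of the 4. Cdkn1c was lowest in B-like cells, Cdkn2d was highest there, and the Din-KO points of Cdkn1a lay above the WT points in dental follicle-like, endothelium-like and macrophage-like cells.

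Among the Cip/Kip genes, Cdkn1a was high in the cells that make dentin and enamel. In odontoblast-like cells its level was 762 CPM in WT 1, 577 in WT 2, 847 in Din-KO 1 and 597 in Din-KO 2 (696 ± 131 CPM, n = 4), and 407 CPM on average with clusters drawn at resolution 0.5. In epithelium-like cells it was 618, 612, 655 and 452 CPM in the same order (584 ± 90.3 CPM, n = 4). Odontoblast-like and epithelium-like cells overlapped in level, and both had higher levels than dental pulp-like cells in every library, where Cdkn1a was at 21.7, 29.3, 44.5 and 65.0 CPM. Within the epithelium, a cluster led by Amelx, Enam and Ambn, genes of the enamel matrix, had 1936, 646, 1149 and 567 CPM of Cdkn1a. In glia-like cells the level of Cdkn1a was 589 CPM in Din-KO 1 and 1053 CPM in Din-KO 2, the 2 libraries with 20 or more of them. The level in macrophage-like, dental follicle-like and endothelium-like cells differed so much between libraries (320 ± 324, 184 ± 177 and 154 ± 117 CPM, n = 4 each) that they have no fixed place in this order. As a share of cells with at least 1 UMI, Cdkn1a was seen in 80.1% ± 12.6 of odontoblast-like and 8.07% ± 1.88 of B-like cells, the class with the lowest share (median depths of 12110 to 21357 and of 2579 to 3550 UMIs). With each cell thinned to 2000 UMIs these shares were 52.7% ± 8.72 and 3.57% ± 2.15 (SD, n = 4).

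Cdkn1b, whose protein restrains entry into S phase, was found in all classes. Its level was 119 ± 17.7 CPM in B-like cells (125, 141, 102 and 107 CPM in WT 1, WT 2, Din-KO 1 and Din-KO 2), 100 ± 15.8 in dental pulp-like cells and 73.3 ± 10.2 in dental follicle-like cells. It was lowest in odontoblast-like cells, with 52.0, 43.5, 51.1 and 42.5 CPM (47.3 ± 4.96). The 7 classes with all libraries overlapped from each to the next. Glia-like cells stood apart from the B-like cells below them, with 317 and 253 CPM in Din-KO 1 and Din-KO 2 (285 ± 45.2 CPM, n = 2).

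Cdkn1c had its highest levels in the mesenchyme. It was highest in odontoblast-like cells (479, 947, 498 and 845 CPM in WT 1, WT 2, Din-KO 1 and Din-KO 2; mean 692 ± 239), followed by dental pulp-like cells (540, 349, 328 and 184 CPM; mean 350 ± 146) and dental follicle-like cells (289, 292, 223 and 263 CPM; mean 267 ± 31.8). Odontoblast-like and pulp-like cells overlapped, since both odontoblast-like values of replicate 1 lay below the pulp-like value of WT 1. Endothelium-like cells followed with 203, 201, 120 and 137 CPM. Macrophage-like (42.8 ± 12.9 CPM, or 12.2 at resolution 0.5), epithelium-like (28.5 ± 16.5) and B-like cells (14.8 ± 4.90) had the least. Pulp-like clusters were unequal. In the 2 libraries with at least 20 cells of each, the cluster led by Vcan and Grik1 had 765 CPM in WT 1 and 379 in Din-KO 1, and the cluster led by Pdlim3 and Slc20a2 had 211 and 103 CPM.

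Of the INK4 genes, Cdkn2a and Cdkn2b, the neighbours on chromosome 4, were the sparsest, with 389 and 1220 UMIs in all cells. Among the 7 classes Cdkn2a was highest in dental follicle-like cells, with 13.4 CPM in WT 1, 5.85 in WT 2, 9.10 in Din-KO 1 and 7.90 in Din-KO 2 (9.06 ± 3.19, n = 4). The other 6 classes had means of 0.839 to 2.46 CPM and overlapped from each to the next. The follicle-like values lay above all of theirs with the exception of B-like cells of Din-KO 1, at 7.86 CPM on 3 UMIs. Glia-like cells had 22.2 and 13.6 CPM in Din-KO 1 and Din-KO 2. Within the follicle it was highest in a cluster of 201 cells led by Spp1, Mmp13 and Ibsp, genes of mineralizing or remodelled matrix, where it reached 45.6, 16.4, 43.4 and 33.5 CPM. Cdkn2b was at 95.1, 28.3, 74.7 and 62.8 CPM in the same cluster, above its mean of 15.5 ± 8.37 CPM in all follicle-like cells. At least 1 UMI of Cdkn2a was found in 8.77% ± 1.59 of dental follicle-like and 0.863% ± 0.329 of dental pulp-like cells, at median depths of 10824 to 18042 and 6878 to 10751 UMIs. With cells thinned to 2000 UMIs the shares were 1.48% ± 0.254 and 0.319% ± 0.189. In B-like cells, at median depths of 2579 to 3550 UMIs, they were 0.763% ± 0.873 as counted and 0% thinned.

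Cdkn2b also appeared outside the follicle. The pulp-like cluster led by Pdlim3 and Slc20a2 had 41.2 CPM of it in WT 1 and 59.6 in Din-KO 1, and the larger pulp-like cluster led by Cldn10 and Ifitm1 had 18.7 and 30.3 CPM in these libraries and 21.0 and 19.4 in WT 2 and Din-KO 2. Its level in epithelium-like cells depended on the library, with 1.07 CPM in WT 1 and 3.81 in Din-KO 1, but 20.2 in WT 2 and 42.8 in Din-KO 2. The Amelx cluster of the epithelium had 22.8 CPM in WT 2, 6.20 in Din-KO 1 and 71.4 in Din-KO 2, and 0 UMIs in WT 1, which allows up to 4.16 CPM. In B-like cells Cdkn2b had 0 UMIs in all 4 libraries. A count of 0 allows up to 2.94 CPM in WT 1 and WT 2, 7.86 in Din-KO 1 and 5.96 in Din-KO 2, and a share of cells with a UMI of up to 1.62%, 1.48%, 3.03% and 2.83%. These limits cover counting error only and do not limit the share of cells that express the gene.

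Cdkn2c was highest among the 7 classes in dental follicle-like cells, with closely matched libraries: 51.9, 55.6, 48.2 and 48.8 CPM in WT 1, WT 2, Din-KO 1 and Din-KO 2 (51.1 ± 3.39), all above the 4 B-like values (47.0, 29.4, 39.3 and 21.8 CPM). It was lowest in odontoblast-like cells (7.64, 8.58, 8.90 and 11.3 CPM; mean 9.12), but the mean there was 17.6 CPM with thinned cells and 21.7 with clusters drawn at resolution 0.5. In non-cycling cells alone, B-like cells had a mean of 7.07 CPM, below odontoblast-like cells at 7.40. The follicle-like cells with most Cdkn2c were another cluster than those with Cdkn2a and Cdkn2b: a cluster led by Bmp3, Tnn and Dkk2 had 81.6, 59.3, 68.6 and 54.5 CPM of Cdkn2c, against 23.2, 23.8, 15.6 and 22.3 CPM in the cluster led by Spp1 and Mmp13.

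Cdkn2d had its highest levels in B-like and neutrophil-like cells. In B-like cells it was at 226, 132, 189 and 137 CPM (171 ± 44.9), and in neutrophil-like cells at 175, 151 and 161 CPM in WT 1, WT 2 and Din-KO 2 (162 ± 12.01, n = 3). The lowest B-like value, 132 CPM, lay far above the highest value of the other 6 classes, 37.3 CPM in dental follicle-like cells of WT 1. Those classes had means between 13.2 ± 4.18 CPM in epithelium-like cells and 30.0 ± 6.91 in dental follicle-like cells, and each overlapped the next.

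The genes with the pattern most like each member were found from the Pearson correlation of log2(CPM + 1), centred within libraries, over 41 pairs of class and library from 12 classes, among 9679 genes. The points share libraries, depth and classes, so these are descriptions. Cdkn1c followed Pcsk5 (r = 0.93), Lox (r = 0.90) and Aebp1 (r = 0.90). Cdkn2d followed Hmgb2 (r = 0.88), Treml2 (r = 0.87) and Ccnd3 (r = 0.86), and Cdkn1b followed Tmem134 (r = 0.86), Lmo4 (r = 0.84) and Cnp (r = 0.76). For Cdkn2c the 3 genes were Csrp1 (r = 0.79), Mxd3 (r = 0.77) and Diaph3 (r = 0.75), and for Cdkn1a they were Ckb (r = 0.77), Zdhhc2 (r = 0.74) and Atp2b1 (r = 0.71). The sparse Cdkn2b (Nfix, Enc1 and Clstn1, r = 0.73 to 0.76) and Cdkn2a (S100b, Sipa1l1 and Cdk5rap2, r = 0.65 to 0.68) had weaker partners.

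Cells were then divided by Top2a and Mki67, genes of the division cycle. Cells with at least 2 UMIs of the pair were called cycling, cells with 0 non-cycling, and cells with 1 were left out: in mesenchyme-like cells these were 578, 6164 and 417 cells. Both sums of a library were compared in edgeR's quasi-likelihood test with the library as a block, on CPM scaled by TMM (trimmed mean of M values). In cycling mesenchyme-like cells Cdkn2c and Cdkn2d were higher and Cdkn1c and Cdkn2b lower, each in 4 of 4 libraries.

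**Figure D2:**
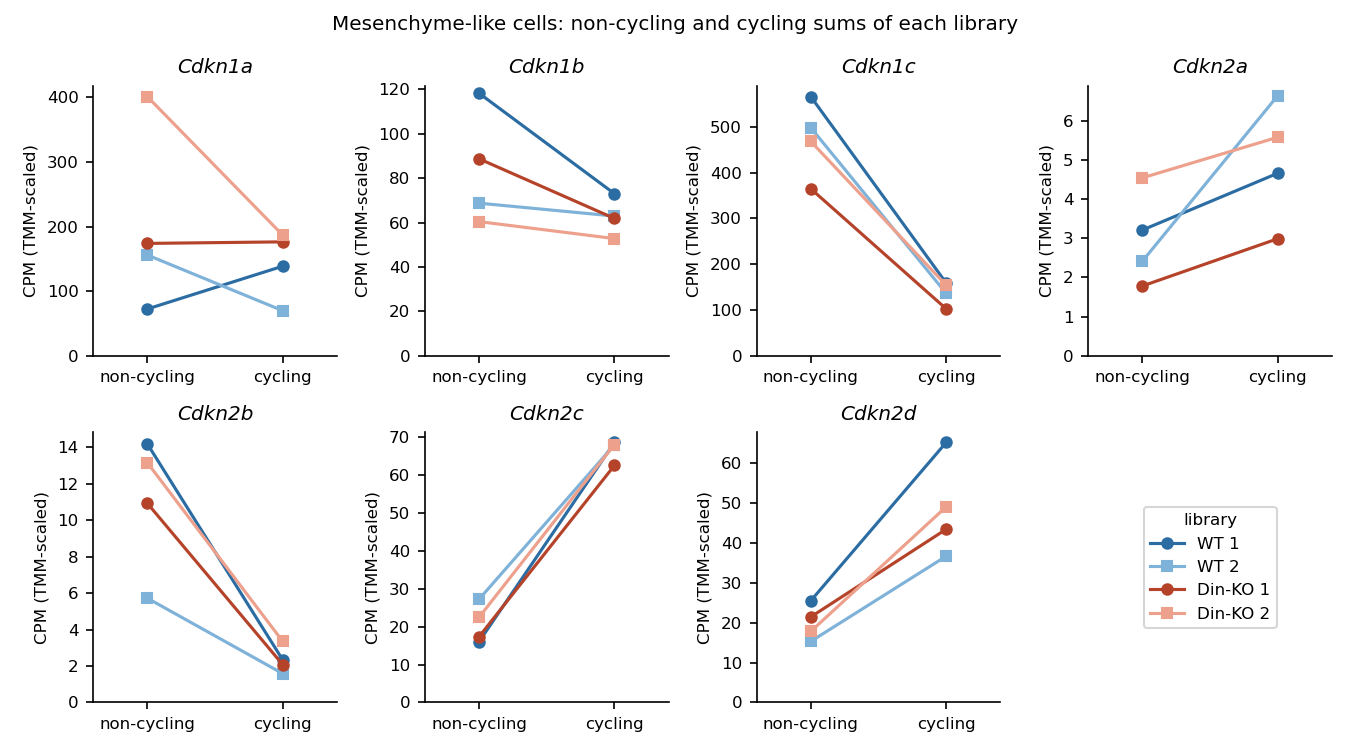
TMM-scaled CPM (vertical axes, linear, from 0) of each CDK inhibitor in the non-cycling and the cycling mesenchyme-like cells (horizontal axis) of each library, with a line for each library. All 4 lines rise for Cdkn2a, Cdkn2c and Cdkn2d and fall for Cdkn1b, Cdkn1c and Cdkn2b, whereas those of Cdkn1a run in different directions.

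Cdkn2c went from 16.1 to 68.6 CPM in WT 1, from 27.2 to 68.0 in WT 2, from 17.4 to 62.6 in Din-KO 1 and from 22.5 to 68.1 in Din-KO 2 between non-cycling and cycling mesenchyme-like cells. The log2 fold change was 1.72 (SE 0.130, edgeR adjusted p = 2.48e-05). Cdkn2d went from 25.5 to 65.2, from 15.3 to 36.7, from 21.5 to 43.5 and from 17.8 to 49.1 CPM (log2 fold change 1.27, SE 0.101, edgeR adjusted p = 3.44e-05). The cycling and non-cycling values of both genes did not overlap. Cdkn1c went the other way, from 566 to 159 CPM in WT 1, from 498 to 137 in WT 2, from 365 to 103 in Din-KO 1 and from 468 to 154 in Din-KO 2. Its log2 fold change was -1.78 (SE 0.0714, edgeR adjusted p = 6.12e-07). Cdkn2b fell from 14.2 to 2.33, from 5.72 to 1.58, from 10.9 to 2.07 and from 13.2 to 3.35 CPM (log2 fold change -2.26, SE 0.204, edgeR adjusted p = 6.85e-05).

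Cdkn2a and Cdkn1b passed the threshold by less. Cdkn2a was at 3.21 and 4.66 CPM in non-cycling and cycling cells of WT 1, at 2.42 and 6.64 in WT 2, at 1.78 and 2.99 in Din-KO 1 and at 4.54 and 5.58 in Din-KO 2 (log2 fold change 0.76, SE 0.267, edgeR adjusted p = 0.0491). Its call was lost without WT 1 (adjusted p = 0.0888), WT 2 (0.178) or Din-KO 1 (0.111) and in DESeq2 (0.094). Cdkn1b was at 118 and 73.0, 68.7 and 62.9, 88.7 and 61.9 and 60.4 and 52.8 CPM in the same order (log2 fold change -0.40, SE 0.108, edgeR adjusted p = 0.0176). Its call was lost without WT 1 (adjusted p = 0.068) or Din-KO 1 (0.0814). For Cdkn1a the values were 72.6 and 139 CPM in WT 1, 156 and 69.9 in WT 2, 174 and 176 in Din-KO 1 and 401 and 187 in Din-KO 2 (log2 fold change -0.32, SE 0.316, edgeR adjusted p = 0.445). The libraries disagreed in direction for this gene, and without WT 1 its log2 fold change was -0.74 (adjusted p = 0.0312).

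In all, 6 of 7 members passed the threshold of 0.05, 3 higher and 3 lower in cycling cells. Of all 13674 genes tested 44.9% did so, with 21.7% higher and 23.3% lower, so passing is common in this comparison. Cycling cells were deeper, with medians of 16241 to 28924 UMIs against 7246 to 13991. With each cell thinned to 2000 UMIs, the log2 fold change was 2.06 for Cdkn2c, 0.88 for Cdkn2d (adjusted p = 0.012) and -1.97 for Cdkn1c. In that fit 6 members were tested and 4 called. Few counts of Cdkn2b were left: thinned, it had a UMI in 0.266% ± 0.532 of cycling and 1.88% ± 0.729 of non-cycling cells (SD, n = 4). Cycling cells were also spread over other clusters than non-cycling ones. With each cluster summed apart and each pair of library and cluster as a block, Cdkn2c (1.61) and Cdkn2d (1.44) changed little. In that fit Cdkn1c went to -0.72 (edgeR adjusted p = 0.00492) and Cdkn1b to -0.03 (edgeR adjusted p = 0.989). Cdkn2a and Cdkn2b had too few counts to be tested there.

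The sequence just before the start is shown for the INK4 genes, all of which passed the test between cycling and non-cycling mesenchyme-like cells. The windows are the 250 bases before each start in RefSeq on GRCm38.p6, 5′ to 3′ on the gene's strand, and 6 of the 7 members matched, with 9 starts in all; Cdkn1c is named only. Capitals mark matches on either strand to GGGCGG (the GC box), to CCAAT (the CCAAT box) and to TTTNNCGC (an E2F-type motif). Cdkn2c has 2 starts (chr4:109666757-109667006 and chr4:109665373-109665622), and Cdkn2d (chr9:21291210-21291459) and Cdkn2b (chr4:89311033-89311282) have 1 each. All are on the minus strand. For Cdkn2a the window of its upstream start is shown (chr4:89294620-89294869), and that of its downstream start (chr4:89282193-89282442) is not. The gene also encodes ARF and the windows carry no transcript name, so the one shown should not be read as that of the INK4 transcript.
Cdkn2c, upstream start: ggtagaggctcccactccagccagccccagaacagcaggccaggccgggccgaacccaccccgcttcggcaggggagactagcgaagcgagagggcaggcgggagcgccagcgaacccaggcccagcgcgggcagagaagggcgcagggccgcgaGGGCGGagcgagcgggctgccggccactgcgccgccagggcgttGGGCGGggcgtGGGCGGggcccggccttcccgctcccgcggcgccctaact
Cdkn2c, downstream start: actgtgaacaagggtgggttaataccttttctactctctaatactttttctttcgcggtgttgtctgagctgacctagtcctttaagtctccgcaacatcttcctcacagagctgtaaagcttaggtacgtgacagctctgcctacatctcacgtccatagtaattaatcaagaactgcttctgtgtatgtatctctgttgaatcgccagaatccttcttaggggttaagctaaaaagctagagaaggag
Cdkn2d: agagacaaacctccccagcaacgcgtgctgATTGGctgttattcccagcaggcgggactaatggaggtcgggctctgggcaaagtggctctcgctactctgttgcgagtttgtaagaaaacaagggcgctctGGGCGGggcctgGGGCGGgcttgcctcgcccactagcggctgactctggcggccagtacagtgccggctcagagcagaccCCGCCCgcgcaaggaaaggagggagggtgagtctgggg
Cdkn2b: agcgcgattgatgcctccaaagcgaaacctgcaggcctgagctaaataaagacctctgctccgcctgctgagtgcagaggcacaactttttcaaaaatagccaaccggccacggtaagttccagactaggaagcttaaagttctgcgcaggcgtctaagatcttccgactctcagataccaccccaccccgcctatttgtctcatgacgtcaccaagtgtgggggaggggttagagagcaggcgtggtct
Cdkn2a, upstream start: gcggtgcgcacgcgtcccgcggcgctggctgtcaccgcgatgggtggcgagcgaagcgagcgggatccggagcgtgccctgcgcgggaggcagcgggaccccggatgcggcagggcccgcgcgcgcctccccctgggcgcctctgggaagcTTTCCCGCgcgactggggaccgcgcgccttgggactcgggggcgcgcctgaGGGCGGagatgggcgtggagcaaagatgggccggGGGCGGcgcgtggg
The GC box was found 3 times in the upstream window of Cdkn2c, 3 times in the window of Cdkn2d and 2 times in the upstream window of Cdkn2a. It was found 0 times in the window of Cdkn2b and in the downstream windows of Cdkn2c and Cdkn2a. Cdkn2d also had 1 CCAAT box. Of the Cip/Kip genes, whose windows are not shown, Cdkn1b had 1 GC box and 2 CCAAT boxes. Cdkn1a had 2 GC boxes in its downstream window and 0 in its upstream one. The E2F-type letters were found in both windows of Cdkn2a and in no window of the other members with an entry. Of all 32841 promoter windows of this length, 32.7% held the GC box, 33.9% the CCAAT box and 4.28% the E2F-type letters. A match is a run of letters and not a measured binding site.

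The partners of the inhibitors were counted in the same cells, where 21.7% of all genes tested were higher and 23.3% lower in cycling cells. Because Top2a and Mki67 chose the cells, a rise of other genes of the division cycle was built into the choice. Of 15 cyclins and CDKs, 10 were higher and 3 lower in cycling mesenchyme-like cells (median log2 fold change 0.863, against -0.063 over all genes tested). Ccna2 (6.82) and Ccnb2 (5.87), cyclins of S phase and mitosis, changed most upward, and the D cyclins Ccnd3 (-0.57) and Ccnd2 (-0.44), partners of the kinases that INK4 proteins bind, fell. The third D cyclin, Ccnd1, named after its values were seen, rose (0.86, edgeR adjusted p = 0.00282). Of 13 pocket protein and E2F genes, 9 were higher and 2 lower (median 1.08). E2f7 (6.18) and E2f8 (5.86) rose, and the pocket protein genes Rbl2 (-0.43) and Rb1 (-0.39) fell. Of 15 regulators of the inhibitors, 6 were higher and 4 lower (median 0.123), among them Dtl (3.29), which takes part in the breakdown of the Cdkn1a protein, Cks1b (2.38), which helps break down the Cdkn1b protein, Foxo1 (-1.06) and Myc (-0.71). All 15 proliferation genes were higher, a list that includes Top2a and Mki67, by which the cells were chosen. Of 16 dissociation stress genes 3 were higher and 5 lower (median -0.442), and the number lower was 1 (without Din-KO 1) to 9 (without Din-KO 2) with 1 library left out. They include Hsp90aa1 at 0.82, Dnajb1 at 0.56, Hspa1a at -1.14 and Ier3 at -0.97.

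**Figure D3:**
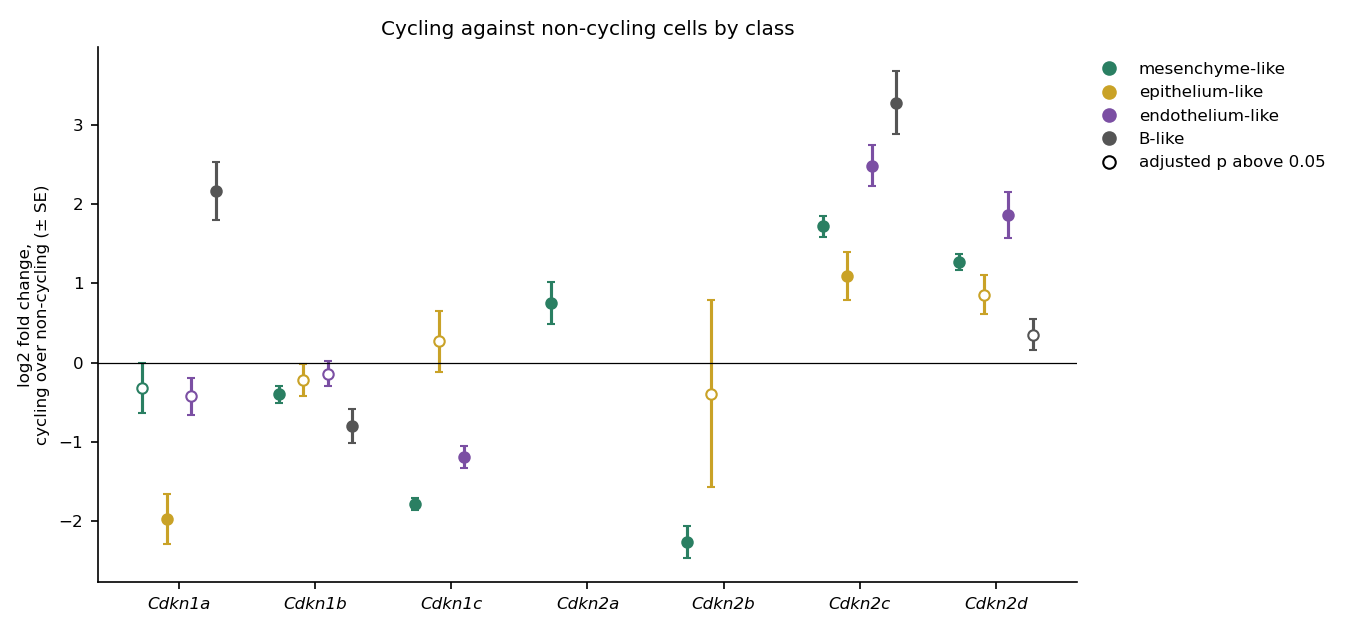
Log2 fold change of each CDK inhibitor between cycling and non-cycling cells (vertical axis, points ± SE) in 4 classes. The SE was derived from the F statistic of the edgeR test. Open points have an adjusted p above 0.05 and absent points were not tested. Cdkn2c was positive in all 4 classes, and Cdkn1a ran from -1.97 in epithelium-like to 2.16 in B-like cells.

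The same comparison could be made in B-like, endothelium-like and epithelium-like cells. Cdkn2c was higher in cycling cells of all of them. In B-like cells it went from 11.8 to 80.2 CPM in WT 1, from 5.15 to 67.2 in WT 2, from 4.94 to 112 in Din-KO 1 and from 7.07 to 49.5 in Din-KO 2 (log2 fold change 3.28, SE 0.394, edgeR adjusted p = 1.83e-07). With clusters drawn at resolution 0.5, edgeR tested 2 members in B-like cells and called 0. The B-like calls of Cdkn2c and, given below, of Cdkn1a and Cdkn1b were therefore lost there. The B-like class joined 3 clusters, led by Iglc1 and Ms4a1, by Vpreb3 and Mzb1, and by Hist1h2ae and Hist1h2ap. With each cluster summed apart, edgeR tested 2 members in B-like cells and called 1. The part of this make-up in the differences from B-like cells given below was not tested. In endothelium-like cells, where WT 2 had only 6 cycling cells and was left out, Cdkn2c went from 12.7 to 63.3 in WT 1, from 11.1 to 57.3 in Din-KO 1 and from 5.69 to 53.7 in Din-KO 2 (2.49, SE 0.257, edgeR adjusted p = 4.75e-05). In epithelium-like cells the change was smaller, from 6.42 to 23.7, from 12.1 to 14.0, from 11.1 to 21.0 and from 6.72 to 16.5 CPM (1.10, SE 0.30, edgeR adjusted p = 0.0469), and its call was lost without WT 1 (adjusted p = 0.168), Din-KO 1 (0.176) or Din-KO 2 (0.136).

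Cdkn1a moved in opposite directions in B-like and epithelium-like cells. In epithelium-like cells it was lower in cycling cells of every library: 978 and 173 CPM in non-cycling and cycling cells of WT 1, 898 and 524 in WT 2, 893 and 138 in Din-KO 1 and 636 and 173 in Din-KO 2 (-1.97, SE 0.317, edgeR adjusted p = 0.00741). With clusters summed apart it was -1.88 (adjusted p = 0.0616), and without Din-KO 1 -1.72 (0.0615). In B-like cells it was higher: 2.94 and 21.9 CPM in WT 1, 13.7 and 72.2 in WT 2, 34.6 and 231 in Din-KO 1 and 24.8 and 38.5 in Din-KO 2 (2.16, SE 0.364, edgeR adjusted p = 2.83e-05). This rested on 14 to 37 UMIs of Cdkn1a in all B-like cells of a library, and Cdkn1a was too sparse for the test with clusters summed apart, with thinned cells or without WT 2. Cycling B-like cells had medians of 6312 to 11158 UMIs against 2474 to 3287. Markers of macrophages summed to 39.7 to 170 CPM in B-like cells, and their part in the result was not tested.

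Cdkn2d was higher in cycling endothelium-like cells (77.9 against 13.7 CPM in WT 1, 36.1 against 16.8 in Din-KO 1 and 49.8 against 12.2 in Din-KO 2; 1.86, SE 0.291, edgeR adjusted p = 0.00115), a call that was lost without WT 1 (adjusted p = 0.06). In B-like cells, where its level was highest, its log2 fold change was 0.35 (SE 0.199, edgeR adjusted p = 0.155) and turned to -0.53 with clusters summed apart. In epithelium-like cells it was 0.86 (SE 0.249, edgeR adjusted p = 0.055). Cdkn1c was lower in cycling endothelium-like cells, at 103 against 243 CPM in WT 1, 58.5 against 139 in Din-KO 1 and 76.7 against 154 in Din-KO 2 (-1.19, SE 0.140, edgeR adjusted p = 1.32e-04). Cdkn1b was lower in cycling B-like cells (-0.80, SE 0.214, edgeR adjusted p = 0.00375), but not in DESeq2 (adjusted p = 0.121), with thinned cells (0.261) or without WT 2 (0.0737).

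Of the members tested, 3 of 4 passed in B-like cells (44.8% of 5591 genes, 22.8% higher and 22.0% lower), 3 of 5 in endothelium-like cells (17.0% of 9670 genes, 11.1% higher and 5.93% lower) and 2 of 6 in epithelium-like cells (17.1% of 10077 genes, 8.13% higher and 8.94% lower). Macrophage-like cells had 10 or more cycling cells in 2 libraries and were not tested.

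Whether the change with cycling differed between classes was then tested. The log2 change of Cdkn1a was lower in endothelium-like (difference -2.82, edgeR adjusted p = 3.74e-04), epithelium-like (-3.99, adjusted p = 0.00261) and mesenchyme-like cells (-2.67, adjusted p = 0.0333) than in B-like cells. That of Cdkn1c was lower in mesenchyme-like than in endothelium-like (difference -0.69, edgeR adjusted p = 0.028) and epithelium-like cells (-2.11, adjusted p = 0.0124). That of Cdkn2c was lower in epithelium-like (difference -2.12, edgeR adjusted p = 0.0335) and mesenchyme-like cells (-1.81, adjusted p = 0.0224) than in B-like cells. Over all genes the test called 5.62% between B-like and endothelium-like, 4.99% between B-like and epithelium-like, 8.32% between B-like and mesenchyme-like, 0.738% between endothelium-like and epithelium-like, 2.63% between endothelium-like and mesenchyme-like and 6.09% between epithelium-like and mesenchyme-like cells.

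The comparison of Din-KO with WT asks whether loss of Din goes with other levels of the inhibitors. Cdkn1a was higher in both Din-KO libraries than in both WT libraries in macrophage-like, endothelium-like, dental follicle-like and dental pulp-like cells and in all mesenchyme-like cells together, with log2 fold changes of 1.10 to 3.27, but no member passed the threshold in any class. There were 2 libraries in each group. The CPM printed for this comparison are levels without TMM scaling unless stated otherwise. This fit had no replicate block. With replicate number as a block Cdkn1a was called in some classes, as given in the last section, but nothing says what the numbers mark.

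**Figure D4:**
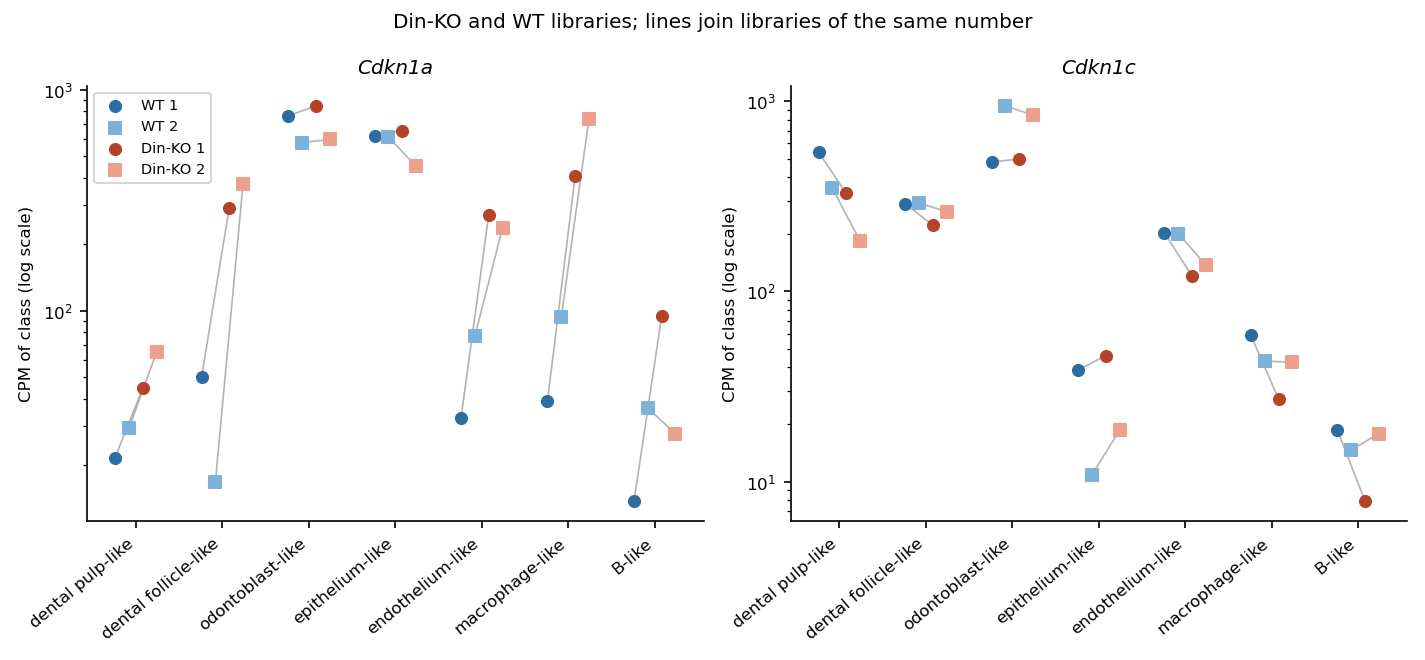
Level (CPM, vertical axes, log scale) of Cdkn1a and Cdkn1c in 7 cell classes (horizontal axis) in the 4 libraries, with grey lines between WT and Din-KO libraries of the same number. For Cdkn1a both lines rise in dental pulp-like, dental follicle-like, endothelium-like and macrophage-like cells, and the lines of odontoblast-like cells are nearly level.

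In macrophage-like cells the level of Cdkn1a was 39.1 CPM in WT 1 and 93.9 in WT 2, against 406 in Din-KO 1 and 740 in Din-KO 2. The log2 fold change was 3.18 (SE 0.479, edgeR adjusted p = 0.164, unadjusted p = 2.38e-04). Within the pairs of libraries of the same number the log2 ratio of Din-KO to WT was 3.38 and 2.98. In dental follicle-like cells 49.9 and 16.9 CPM in WT libraries stood against 292 and 375 in Din-KO libraries (3.27, SE 0.544, edgeR adjusted p = 0.579), with 2.55 and 4.48 within the pairs. In endothelium-like cells WT 1 and WT 2 had 32.7 and 76.5 CPM, and Din-KO 1 and Din-KO 2 had 270 and 238 (2.29, SE 0.396, edgeR adjusted p = 0.214), with 3.05 and 1.64 within the pairs. The lowest Din-KO value was above the highest WT value by a wide margin in each of these classes. DESeq2, run on the same sums, gave adjusted p values of 1.12e-09 for Cdkn1a in macrophage-like, 9.69e-10 in dental follicle-like and 6.88e-06 in endothelium-like cells, so the call depended on the tool.

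Other limits bear on these values of Cdkn1a. Leaving out 1 library gave edgeR adjusted p values of 6.14e-07 (without Din-KO 1) to 0.348 (without WT 1) in macrophage-like, 0.00204 (without WT 1) to 0.482 (without Din-KO 2) in dental follicle-like and 3.54e-07 (without WT 2) to 0.0624 (without Din-KO 1) in endothelium-like cells. In cells with Xist and without Y-linked UMIs alone, which sets aside the unequal sexes, the log2 fold changes were 3.14, 3.07 and 2.18 (edgeR adjusted p = 0.149, 0.592 and 0.417). The 16 dissociation stress genes summed to 4684 and 14000 CPM in WT and 4208 and 9983 in Din-KO macrophage-like cells, to 2624 and 6311 and to 2907 and 5756 in endothelium-like cells, and to 2260 and 3287 and to 3058 and 4235 in dental follicle-like cells. In all of these classes the sum was higher in the library numbered 2 than in the library numbered 1 of the same genotype. The mean mitochondrial share of UMIs was higher in Din-KO in both pairs of libraries, at 4.62% and 6.26% in WT and 5.56% and 6.53% in Din-KO macrophage-like, 2.96% and 4.54% and 3.49% and 4.89% in endothelium-like and 3.01% and 4.33% and 3.87% and 5.08% in dental follicle-like cells. The part of the stress genes and of this share in the level of Cdkn1a was not tested.

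In mesenchyme-like cells together the WT libraries had 84.5 and 148 CPM of Cdkn1a and the Din-KO libraries 181 and 364 (1.19, SE 0.460, edgeR adjusted p = 1), and in dental pulp-like cells at 21.7 and 29.3 and at 44.5 and 65.0 CPM (1.10, SE 0.259, edgeR adjusted p = 1). Within the pairs the log2 ratios were 1.10 and 1.30 in mesenchyme-like and 1.04 and 1.15 in dental pulp-like cells. Odontoblast-like cells, high in Cdkn1a, were 102 of 2650 mesenchyme-like cells in WT 1 and 133 of 843 in WT 2. They were 161 of 3034 in Din-KO 1 and 105 of 632 in Din-KO 2. The part of this make-up in the values of mesenchyme-like cells together was not tested. The dissociation stress genes summed to 2087 and 3346 CPM in WT and 2466 and 4620 in Din-KO mesenchyme-like cells and to 2095 and 3606 and to 2581 and 5714 in dental pulp-like cells, higher in Din-KO in both pairs, and 15 of the 16 had positive log2 fold changes in each class (medians 0.534 and 0.753). Their part in the level of Cdkn1a was not tested here either. Where Cdkn1a was highest, the groups overlapped: the log2 fold change was 0.04 (SE 0.297) in odontoblast-like and -0.33 (SE 0.362) in epithelium-like cells. In B-like cells it was 1.33 (SE 0.657) with pairs in opposite directions, 2.78 and -0.38. The difference between the Din-KO effects on Cdkn1a in macrophage-like and mesenchyme-like cells was 2.11 (edgeR adjusted p = 0.0623), and no difference between classes passed the threshold for any member.

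**Figure D5:**
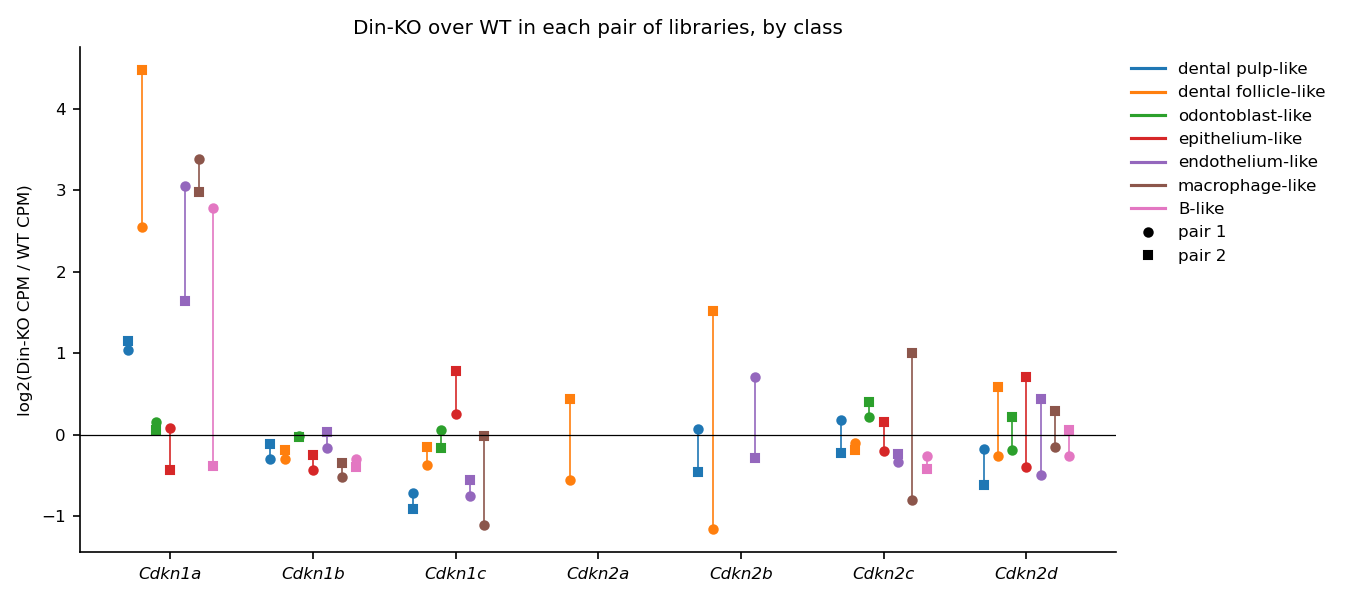
Log2 ratio of Din-KO to WT CPM (vertical axis) within the pair of libraries numbered 1 (circles) and the pair numbered 2 (squares) for each CDK inhibitor (horizontal axis), by class (colours), where both libraries of both pairs had at least 10 UMIs of the gene. Cdkn1b lies between -0.52 and 0.03 in every class, and the INK4 genes scatter to both sides of 0.

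No difference of the other Cip/Kip genes passed the threshold. Cdkn1c was lower in both Din-KO libraries than in both WT libraries in mesenchyme-like (492 and 459 against 321 and 407 CPM), dental follicle-like (289 and 292 against 223 and 263) and endothelium-like cells (203 and 201 against 120 and 137). Its log2 fold changes there were -0.43 (SE 0.210), -0.31 (SE 0.202) and -0.63 (SE 0.215). In macrophage-like cells 58.7 and 43.0 stood against 27.1 and 42.4 CPM (-0.57, SE 0.316), a separation of less than 1 CPM, and with the cells of the highest doublet scores left out the sign turned. In dental pulp-like cells Cdkn1c was lower in both pairs, with log2 ratios of -0.72 and -0.92 (log2 fold change -0.80, SE 0.395). Without TMM scaling, both Din-KO values lay below both WT values there (540 and 349 against 328 and 184 CPM). On TMM-scaled CPM the groups overlapped, with 333 CPM in WT 2 and 338 in Din-KO 1. In epithelium-like cells Cdkn1c was higher in both pairs, with log2 ratios of 0.26 and 0.78. The groups overlapped there on either scale (38.5 and 10.8 against 46.0 and 18.6 CPM without TMM scaling). On TMM-scaled CPM, Cdkn1b was lower in both Din-KO libraries in B-like, epithelium-like and dental follicle-like cells. Its log2 fold changes there were -0.31 (SE 0.357), -0.48 (SE 0.308) and -0.31 (SE 0.224). Without this scaling B-like cells had 125 and 141 against 102 and 107 CPM. The groups then overlapped in epithelium-like cells (79.5 and 49.9 against 58.9 and 41.9 CPM). They separated in macrophage-like cells (77.0 and 56.2 against 53.7 and 44.3 CPM), where the TMM-scaled values overlapped. All of these had edgeR adjusted p values of 0.999 or 1. Within pairs Cdkn1b was lower in 6 of 7 classes and opposite in 1. The share of all genes with such signs was not computed, and the classes come from the same 4 libraries, so this count is a description only.

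For the INK4 genes the pairs were counted in the same way, again without a share over all genes. Cdkn2d was opposite between the pairs in 6 of 7 classes and lower in both in 1, Cdkn2b was opposite in 3 of 3 classes and Cdkn2a in 1 of 1. Cdkn2c was lower in both pairs in 3 classes, higher in 1 and opposite in 3. On TMM-scaled CPM their libraries separated by genotype only for Cdkn2c in dental follicle-like and Cdkn2d in dental pulp-like cells, both lower in Din-KO. Without this scaling Cdkn2c had 51.9 and 55.6 against 48.2 and 48.8 CPM (log2 fold change -0.20, SE 0.188, edgeR adjusted p = 0.999). Cdkn2d had 25.1 and 26.1 against 22.1 and 17.0 CPM (-0.36, SE 0.254, edgeR adjusted p = 1). Without it Cdkn2c also separated in odontoblast-like cells, higher in Din-KO (7.64 and 8.58 against 8.90 and 11.3 CPM).

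The separations of libraries by genotype on TMM-scaled CPM, not the counts of pairs, stand against a common background. The shares below were counted on the same scale. The share of genes with both Din-KO values above both WT values, and the share with both below, were 9.44% and 8.58% in mesenchyme-like, 11.8% and 11.1% in dental pulp-like, 12.0% and 11.6% in dental follicle-like, 11.0% and 10.2% in odontoblast-like, 11.6% and 10.0% in epithelium-like, 13.5% and 12.2% in endothelium-like, 12.7% and 12.1% in macrophage-like and 11.5% and 11.5% in B-like cells. edgeR called 6 of 11157 genes (0.0538%) in endothelium-like and 8 of 10988 (0.0728%) in macrophage-like cells, and 0 (0%) in the other 6. Counting unadjusted p values under 0.05 instead, 161 genes passed in mesenchyme-like, 209 in dental pulp-like, 294 in dental follicle-like, 91 in odontoblast-like, 145 in epithelium-like and 129 in B-like cells, and DESeq2 called 15, 13, 40, 2, 5 and 5 there.

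Din-KO and cycling were also tested together in mesenchyme-like cells. The change of the members with cycling did not differ detectably between genotypes: edgeR called 0 of 13674 genes (0%; 294 at an unadjusted p under 0.05, and 12 in DESeq2) and no member, with a log2 difference for Cdkn1a of -0.46 (SE 0.671). The share of mesenchyme-like cells that were cycling was 7.21% in WT 1 and 7.25% in Din-KO 1. It was 11.2% in WT 2 and 11.6% in Din-KO 2, closer within a replicate number than within a genotype. Median depth was split likewise, at 9236 (WT 1) and 7588 UMIs (Din-KO 1) against 15060 and 14071. In WT 1, WT 2, Din-KO 1 and Din-KO 2, cycling cells were 4.09%, 8.57%, 3.47% and 9.38% of dental pulp-like cells. They were 12.8%, 12.5%, 11.05% and 12.1% of dental follicle-like and 14.7%, 3.76%, 10.6% and 6.67% of odontoblast-like cells. The part of depth and make-up in these shares was not tested. The lists of cell cycle genes held 0 called genes between Din-KO and WT in these cells. Their median log2 fold changes were 0.0497 for cyclins and CDKs, 0.0966 for pocket proteins and E2F, 0.114 for regulators of the inhibitors and 0.181 for proliferation genes, against -0.0205 over all genes. The 16 dissociation stress genes were positive in 15 cases with a median of 0.534 in mesenchyme-like cells and 0.5 in dental follicle-like cells.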

How the data were processed

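Single cells of proximal lower incisor tissue from mice at postnatal day 15 were measured in 4 droplet libraries with 3′ chemistry, 2 of WT and 2 of Din-KO mice, after mincing and enzymatic digestion of the tissue. The deposited counts are raw UMI counts per gene and barcode that the authors made with Cell Ranger (6.0.2 per the file headers) on the mm10 (GRCm38) genome, after bcl2fastq. Seurat is named in the submitters' processing notes. Total UMIs were 50423655 in WT 1, 32198098 in WT 2, 54348039 in Din-KO 1 and 33076212 in Din-KO 2.

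Cells needed 1000 or more detected genes, and their UMIs had to be no more than 10% mitochondrial and 3% from hemoglobin genes. Cells were integrated and clustered in Seurat 5.3.0 (2000 variable genes without the 7 CDK inhibitors, cell cycle scores regressed, 30 components, resolution 1, giving 32 clusters). A cluster was named after the type with the highest mean marker score, under a rule set with the data in hand. The second type had to score at most 0.8 of it, and 3 or more markers of the type had to be detected. A cluster also stayed unnamed where another type had markers among the 10 leading genes, and as many or more than the first type. So did a cluster of low depth for its libraries with no marker of its type among them. Otherwise the leading genes of a cluster did not need to include its markers. In all, 420 cells stayed unnamed. Doublet calls (Scrublet in scanpy 1.11.5) marked 99 cells, 0.875%, of which 87 were in WT 1. They were left in, and the 5% of cells with the highest scores were removed in an alternative. UMIs were summed per class and library and tested with edgeR 4.0.16 (quasi-likelihood, TMM, filterByExpr, Benjamini-Hochberg over all genes tested, adjusted p at most 0.05) in R 4.3.3, with DESeq2 1.42.0 as an alternative. Printed p values come from these fits across all genes. The SE printed with an edgeR log2 fold change is its absolute value divided by the square root of the F statistic of the test. Macrophage-like, endothelium-like, epithelium-like, B-like and the mesenchyme classes had at least 20 cells in every library, and cycling was tested where at least 3 libraries had 10 cells of either state. The test was checked on simulated counts. In those of mesenchyme-like cells the comparison of Din-KO with WT missed most of the changed genes, so the lack of a call does not show equal levels. Alternatives were upper-quartile factors, leaving out each library in turn or the filter on low counts, thinned cells, a wider filter on cells, resolution 0.5, other definitions of cycling, non-cycling cells or Xist cells alone, and sums per cluster. The genes named are the 7 members, the 3 genes most like each, and per list the 2 with the largest changes in each direction. The members and lists were chosen with earlier results of these data known. Intervals and limits for counts of 0 cover counting error only. Promoter windows and gene positions came from RefSeq and GENCODE M21. A comparison of clusters is not reported here.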

Additional observations from a re-analysis of the deposited data

Results flagged for a closer look

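The change between cycling and non-cycling cells differed between cell classes in 11 tests of the CDK inhibitors, each an edgeR test of the difference of the log2 fold changes with adjusted p under 0.05. In some of them the member was too sparse to be tested in a class alone, as given below. These classes came from the same 4 libraries. For Cdkn1a the differences from B-like cells were -2.82 in endothelium-like, -3.99 in epithelium-like and -2.67 in mesenchyme-like cells, and they rest on 14 to 37 UMIs of Cdkn1a in the B-like cells of a library. For Cdkn2c they were -2.12 in epithelium-like and -1.81 in mesenchyme-like cells. For Cdkn2d the difference of endothelium-like from B-like cells was 1.25 (adjusted p = 0.0363).

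Cdkn1c differed from B-like cells by -1.71 in endothelium-like (adjusted p = 0.0439) and by -2.24 in mesenchyme-like cells (adjusted p = 0.00572), although it was too sparse to be tested in B-like cells alone. The mesenchyme-like change of Cdkn1c differed by -0.69 from the endothelium-like and by -2.11 from the epithelium-like one. For Cdkn2a the difference of mesenchyme-like from epithelium-like cells was -4.13 (adjusted p = 0.0292). Cdkn2a was too sparse to be tested in epithelium-like cells alone, where its level was 1.69 ± 1.34 CPM. Cdkn2a here, and Cdkn1c against B-like cells, passed the filter on low counts only in the fit joined with the other class. Their differences therefore show no change with cycling in the sparse class.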

How the results depend on the processing

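Between Din-KO and WT, where edgeR called no member, the number of members called across the 7 other classes was 4 without a filter on low counts, 3 in DESeq2, 2 with thinned cells, 1 with the highest doublet scores left out and 1 to 3 with 1 library left out. Genes called in mesenchyme-like cells, 0 in the report, were 8 without the filter, 15 in DESeq2 and 2 to 5 with 1 library left out. In macrophage-like cells, with 8 genes called, they were 146, 46 and 0 to 117 under the same settings, and in endothelium-like cells, with 6, they were 198, 49 and 38 to 187. The replicate numbers appear in the labels, but nothing says that they mark shared mice or days, and there are only 2 pairs. Deviations from the group means correlated between WT 1 and Din-KO 1 in mesenchyme-like cells (r = 0.83 over 15288 genes). With the replicate block, 1 member (Cdkn1a, log2 fold change 1.16) and 142 genes were called in mesenchyme-like cells and 5 members across the other classes (Cdkn1a in 4 classes and Cdkn1c in dental pulp-like cells, log2 fold change -0.82). No other member was called with it. It gave 186 called genes in macrophage-like, 145 in endothelium-like, 313 in dental pulp-like, 63 in dental follicle-like, 110 in B-like, 16 in odontoblast-like and 0 in epithelium-like cells, and 6 dissociation stress genes and 1 regulator higher in mesenchyme-like cells. Fold changes between genotypes were followed for Cdkn1a in every class, and for another member only where its libraries separated by genotype on TMM-scaled CPM. Of these, 208 values kept direction and side of the threshold, 23 passed it under an alternative and 4 turned sign. This choice favours a kept sign, and members whose libraries overlapped were not counted.

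Of the 6 members called between cycling and non-cycling mesenchyme-like cells, 3 were called with each cluster summed apart. In the other classes, with 8 calls, there were 5 with clusters apart, 4 with thinned cells, 5 at resolution 0.5 and 3 to 7 with 1 library left out. At resolution 0.5 none of the calls was in B-like cells, which held 3 of the 8. The 3 calls without WT 2 do not include endothelium-like cells, whose sums already lacked WT 2. Genes called in mesenchyme-like cells, 6143 in the report, were 2506 with thinned cells and 2355 with each cluster summed apart. Elsewhere thinning gave 921 in B-like, 315 in endothelium-like and 371 in epithelium-like cells, against 2503, 1643 and 1720. Other counts beyond 1.5 times were 1442 (DESeq2), 1507 (resolution 0.5), 1033 (clusters apart) and 1656 (without WT 2) in B-like, 716 (DESeq2), 841 (at least 1 UMI), 538 (without WT 1) and 960 (without Din-KO 1) in endothelium-like, and 629 (clusters apart), 831 (without WT 1), 437 (without Din-KO 1) and 1005 (without Din-KO 2) in epithelium-like cells. Thinned cells and cluster sums have fewer counts per sum. Other causes were not tested.

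These signs turned. Cdkn1c between genotypes in macrophage-like cells was 0.28 with the highest doublet scores left out. Cdkn1a in odontoblast-like cells was -0.055 in Xist cells and -0.17 to 0.22 with 1 library left out. With cycling, Cdkn2d in B-like cells was -0.55 at resolution 0.5 and -0.53 with clusters apart, Cdkn1b with thinned cells 0.43 in endothelium-like and 0.23 in epithelium-like cells, and Cdkn1c with clusters apart -0.58 in epithelium-like cells. The difference in cycling change of Cdkn1a between genotypes was -1.56 to 0.64 with 1 library left out. Over all classes, the class with the highest level stayed the same for 3 of 7 members with thinned cells, 2 with WT libraries alone and 1 with non-cycling cells, and that with the highest share of cells for 4 with thinned cells. Glia-like and perivascular-like cells leave the order in some settings. Among the 7 classes with all libraries, the highest class was the same in every setting for 5 members, and differed for Cdkn1a (epithelium-like) and Cdkn2b (dental follicle-like) in some.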
